A study of Danio rerio with 7 samples.

Results

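The Fgf signalling genes of zebrafish (Danio rerio) were followed in sorted sox10-positive cells. They were found by symbol in the deposited expression table, as every name that begins with fgf and a digit, fgfr, spry, spred, dusp6, etv4, etv5 or il17rd. The rule took 60 of 33827 table entries. Of these, 6 share only the first letters of the name (fgfr1op, fgfr1op2, spryd3, spryd4, spryd7a and spryd7b) and were counted apart, which left 54 Fgf pathway genes. The entry named IL17RD (2 of 2) is among the 54, although the current name table gives it another name.

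Libraries came from 3 groups: embryos injected with a ctr9 morpholino and kept in 32 µM progesterone (2 libraries), embryos injected with the same morpholino and kept in DMSO (2 libraries), and uninjected embryos in DMSO (2 libraries). Exposure ran from 50% epiboly to 15 somites in embryos raised at 28 °C, and the sox10-positive cells were then sorted from dissociated embryos. Ctr9 belongs to the PAF1 complex of transcription elongation, and morpholinos are synthetic antisense molecules used to prevent a transcript from being translated or spliced. No control morpholino is named in the labels, so injection itself and loss of Ctr9 cannot be told apart, and a sample of uninjected embryos in progesterone was not analysed here.

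Fgf ligands are secreted proteins that bind receptor tyrosine kinases together with heparan sulfate. The receptors act through Ras and the kinase Erk, and Erk in turn induces its own restraints, the Sprouty and Spred proteins, the phosphatase Dusp6 and the membrane protein Il17rd, along with the ETS transcription factors Etv4 and Etv5. In zebrafish embryos, Fgf3 and Fgf8 induce the otic placode, and Fgf signalling takes part in shaping the pharyngeal skeleton made by cranial neural crest.

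Values are FPKM, a fragment count scaled by transcript length and library size. Fragment totals are unknown; with the 5 ng uninjected library set to 1, steps between low values gave depths of 1.24 and 1.05 with progesterone, 1.40 and 1.47 in DMSO with the morpholino, and 1.30 in the 10 ng uninjected library. The progesterone library of experiment 2 stood apart, with a summed FPKM of 218077 against 356240 to 366907 in the other 5. Over the 13155 genes with a mean of at least 1 FPKM, the median log2 fold change was -0.07 for morpholino in DMSO over uninjected, -0.58 for progesterone over DMSO in morpholino embryos and -0.67 for progesterone with morpholino over uninjected. A relative change is therefore a log2 fold change minus that median, and median-ratio scaling of the libraries served as a second scale. Statements on which libraries are higher, lower or apart refer to deposited FPKM unless scaling is named. The targeted gene ctr9 stood at 26.2 and 20.6 FPKM in progesterone, at 42.2 and 36.7 FPKM in DMSO with the morpholino and at 16.8 and 19.95 FPKM in uninjected libraries. Both injected groups thus lay above the uninjected pair, and the cause was not tested. These values do not check the label, since a block of translation need not lower the mRNA. Sox10 mRNA lay between 60.0 and 191 FPKM in all 6 libraries, while the crest marker foxd3 was at most 0.659 FPKM.

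Of the 54 Fgf pathway genes, 19 reached a mean of 1 FPKM over the 6 libraries and were tested: 6 receptors, 8 feedback inhibitors, 3 ETS genes, the ligand fgf2 and the intracellular factor fgf12b. Among all 60 name matches, 32 and 29 were above 0 for progesterone, 38 and 40 for the morpholino in DMSO, and 43 and 42 for uninjected embryos. Over the whole table, 11788 and 9581 genes reached 1 FPKM with progesterone, against 13447 and 13065 in DMSO with the morpholino and 13181 and 13534 in uninjected libraries.

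No Fgf pathway gene passed limma at an adjusted p of at most 0.05 over all genes in any of the 3 comparisons. For morpholino in DMSO over uninjected, 0 of 19 were called in either direction, beside 0% of all genes higher and 0.0152% lower, and 0 of 19 had an unadjusted p under 0.05, beside 1.45% higher and 2.67% lower. For progesterone over DMSO in morpholino embryos, 0 of 19 were called, beside 0% in each direction, and at an unadjusted p under 0.05 none was higher and 3 were lower, beside 1.88% and 19.8% of all genes. For progesterone with morpholino over uninjected, 0 of 19 were called, beside 0% higher and 0.0152% lower, and at an unadjusted p under 0.05 none was higher and 5 were lower, beside 1.77% and 23% of all genes. Without the progesterone library of experiment 1, limma called 5 of the 19 lower and none higher over DMSO, beside 28.4% and 1.79% of all genes, and 8 lower and none higher over uninjected, beside 31% and 1.66%. Both sets hold fgfr3, spred2a, spry2, fgf2 and fgf12b, and the second adds spred2b, spry4 and etv4. For morpholino over uninjected that fit called 0 of the 19, beside 0% higher and 0.0228% lower. It rests on the progesterone library with the low total, whose spread is assumed to be like that of the other groups. With median-ratio scaling limma again called 0 of 19 in each comparison, beside 0% higher and 0.0152% lower for morpholino over uninjected, 0.0076% and 0% for progesterone over DMSO, and 0.0684% and 0.0228% for progesterone with morpholino over uninjected. On that scale, genes of the 19 with an unadjusted p under 0.05 were 0 for morpholino over uninjected, beside 1.79% higher and 2.39% lower, 1 higher and 1 lower for progesterone over DMSO, beside 7.45% and 9.49%, and 0 higher and 1 lower for progesterone with morpholino over uninjected, beside 7.42% and 8.78%. The labels do not say whether libraries came from different clutches, and whether the uninjected columns of 5 and 10 ng are 2 samples or 2 input amounts of 1 sample could not be settled. P-values and SDs therefore cover only library-to-library spread, perhaps technical in origin, above all for the uninjected group.

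**Figure D1:**
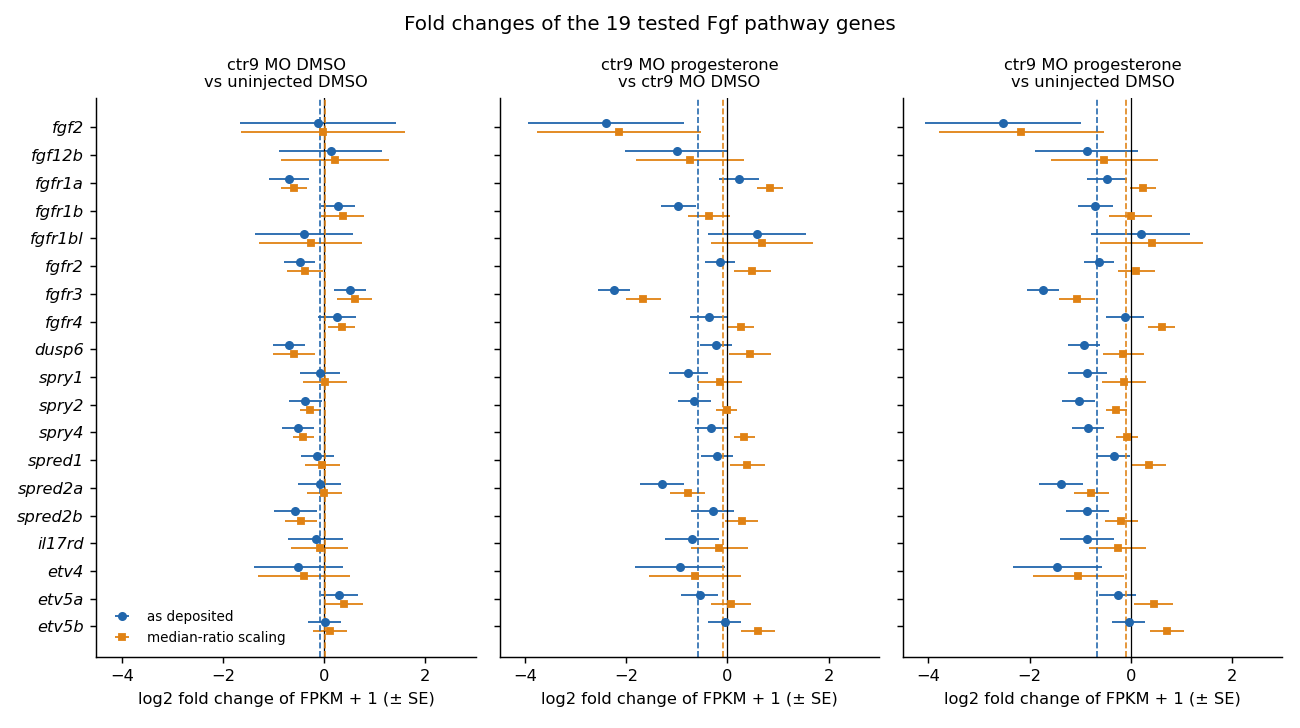
Log2 fold change of FPKM + 1 with its standard error for the 19 tested genes in the 3 comparisons, as deposited (circles) and after median-ratio scaling (squares). Dashed lines mark the median of all 13155 genes on each scale, at -0.58 as deposited for progesterone over DMSO, and fgfr3 at -2.24 lies well to the left of it.

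Ligands were nearly silent apart from fgf2. Of 26 entries for secreted or endocrine ligands, 11 were listed at 0 in every library, among them fgf4, fgf7, fgf8b, fgf9, fgf10a and fgf10b, and 19 stayed under 1 FPKM in every library. Fgf8a, the main ligand of the midbrain-hindbrain boundary, stood at 0.763 and 0.0361 FPKM in progesterone, at 1.13 and 0 FPKM in DMSO with the morpholino and at 0.696 and 0.321 FPKM in uninjected libraries. Fgf3, which acts with fgf8a in otic induction, stood at 0 and 0.866 FPKM in progesterone, at 0 and 0.370 FPKM in DMSO with the morpholino and at 0.455 and 0.386 FPKM in uninjected libraries. In fgf8a all groups overlapped. In fgf3 the morpholino DMSO pair lay below the uninjected pair as deposited, but with median-ratio scaling they overlapped, at 0 and 0.346 against 0.388 and 0.301. At such levels no difference was detectable.

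Fgf17, fgf18b, fgf1b and fgf6a were above 0 in all 6 libraries, and fgf2 and fgf8a in 5. Of these 4, fgf6a reached the highest value in a single library, standing at 0.218 and 0.360 FPKM in progesterone, 2.05 and 0.660 FPKM in DMSO with the morpholino and 0.378 and 1.00 FPKM in uninjected libraries. Fgf18b, at 0.915 and 0.209 FPKM in progesterone, 0.732 and 0.963 FPKM in DMSO with the morpholino and 0.874 and 1.35 FPKM in uninjected libraries, overlapped among all groups. Fgf16 was listed at 0 in both progesterone libraries, at 0 and 0.347 FPKM in DMSO with the morpholino and at 1.02 and 1.19 FPKM in uninjected libraries. Fgf24, a ligand of pectoral fin and pharyngeal tissue, was above 0 only in the morpholino DMSO libraries, at 0.201 and 0.687 FPKM. These genes were below the level of the test.

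Fgf2, a ligand released without a signal peptide, stood at 37.9 and 0 FPKM in progesterone, at 35.1 and 29.0 FPKM in DMSO with the morpholino and at 22.2 and 54.2 FPKM in uninjected libraries. The groups overlapped except for the 0, which came from the progesterone library of experiment 2. Of 1387 genes at 20 FPKM or more in each of the other 5 libraries, 7 were listed at 0 in that library, fgf2 and the mitochondrial gene mt-nd3 among them, so the entry is given only as listed at 0. Such zeros were not particular to that library. By the same rule the uninjected 10 ng library had 7 of 906, and each remaining library had 1 or 0. The remaining secreted ligands together summed to 3.21 and 2.67 FPKM in progesterone, 5.51 and 4.92 FPKM in DMSO with the morpholino and 5.73 and 7.94 FPKM in uninjected libraries. Progesterone was below both other groups in this sum as deposited, but with median-ratio scaling its values of 3.56 and 4.71 overlapped those of 4.53 and 4.59 in DMSO with the morpholino, beside 4.89 and 6.19 in uninjected libraries.

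The genes of the fgf11 to fgf14 class encode intracellular factors that bind sodium channels and not Fgf receptors. Of 7 such entries 1 was tested, fgf12b, at 10.02 and 0.0821 FPKM in progesterone, 4.53 and 7.66 FPKM in DMSO with the morpholino and 4.42 and 6.37 FPKM in uninjected libraries. The progesterone pair spanned the values of both other groups. Fgf13a and fgf13b, listed at 0 in both progesterone libraries, reached at most 0.566 and 1.21 FPKM elsewhere.

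Of the receptor genes, fgfr3 had the log2 fold change of largest size, as deposited and with median-ratio scaling, in both progesterone comparisons. Fgfr3 stood at 2.91 and 3.70 FPKM in progesterone, against 20.2 and 18.3 FPKM in DMSO with the morpholino and 13.7 and 12.8 FPKM in uninjected libraries. The 3 groups did not overlap, with progesterone lowest and the morpholino in DMSO highest. Mean fgfr3 was 3.31 ± 0.56 FPKM in progesterone and 19.2 ± 1.30 FPKM in DMSO with the morpholino (SD, n = 2 each), which is 5.82-fold lower in progesterone.

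On the log2 scale fgfr3 was at -2.24 ± 0.32 for progesterone over DMSO in morpholino embryos (SE, limma adjusted p = 0.14), a relative change of -1.66. Over uninjected libraries it was at -1.73 ± 0.32 (limma adjusted p = 0.10), a relative change of -1.06. With median-ratio scaling these were -1.66 ± 0.35 (limma adjusted p = 0.15) and -1.06 ± 0.35 (limma adjusted p = 0.24). Morpholino over uninjected, both in DMSO, gave 0.51 ± 0.32 (limma adjusted p = 1). None of these passed the threshold as reported. Without the progesterone library of experiment 1, progesterone over DMSO was at -2.10 and progesterone with morpholino over uninjected at -1.59. Without that of experiment 2, progesterone over DMSO was at -2.37. Each of these values rests on 1 progesterone library. The comparisons share the morpholino DMSO or the uninjected libraries, so they are not independent of each other.

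**Figure D2:**
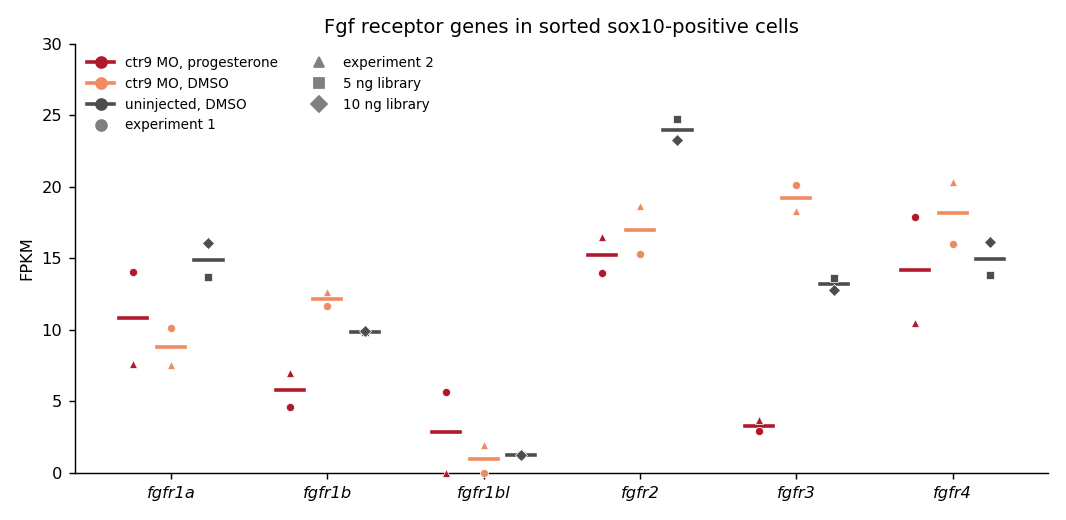
FPKM of the 6 Fgf receptor genes in each library (points, shaped by experiment or by the amount in the column name) with the group mean (bar). For fgfr3 the progesterone libraries lie at 2.91 and 3.70 FPKM, below the other 4 libraries at 12.8 to 20.2.

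Fgfr4 and fgfr2 did not share the low level of fgfr3. Fgfr4 stood at 17.9 and 10.5 FPKM in progesterone, 16.0 and 20.3 FPKM in DMSO with the morpholino and 13.8 and 16.2 FPKM in uninjected libraries, with overlap among all groups. Fgfr2 stood at 14.0 and 16.5 FPKM in progesterone, 15.3 and 18.7 FPKM in DMSO with the morpholino and 24.7 and 23.3 FPKM in uninjected libraries. Both injected groups lay below the uninjected pair as deposited. With median-ratio scaling this held in DMSO with the morpholino, but progesterone, at 15.5 and 29.1, spanned the uninjected values of 21.1 and 18.1. For morpholino over uninjected in DMSO, fgfr2 was at -0.48 ± 0.30 in log2 units (SE, limma adjusted p = 1; n = 2 libraries each).

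The zebrafish co-orthologs of FGFR1 went apart. Fgfr1a stood at 14.0 and 7.62 FPKM in progesterone, 10.1 and 7.52 FPKM in DMSO with the morpholino and 13.7 and 16.1 FPKM in uninjected libraries. The morpholino DMSO pair lay below the uninjected pair, at -0.70 ± 0.40 on the log2 scale (limma adjusted p = 1). With median-ratio scaling, progesterone lay above both other groups in fgfr1a. The scaled values were 15.6 and 13.5 in progesterone, 8.34 and 7.02 in DMSO with the morpholino and 11.7 and 12.5 in uninjected libraries. On that scale fgfr1a was the gene with an unadjusted p under 0.05 that was higher for progesterone over DMSO (limma adjusted p = 0.22). Fgfr1b stood at 4.62 and 6.997 FPKM in progesterone, 11.7 and 12.6 FPKM in DMSO with the morpholino and 9.82 and 9.93 FPKM in uninjected libraries.

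Fgfr1b was lowest in progesterone and highest in DMSO with the morpholino, without overlap as deposited, while with median-ratio scaling progesterone overlapped both other groups. Its log2 fold change was -0.97 ± 0.34 for progesterone over DMSO (SE, n = 2 against 2, limma adjusted p = 0.19), a relative change of -0.39, and -0.37 ± 0.42 with median-ratio scaling (limma adjusted p = 0.67). For morpholino over uninjected it was 0.27 ± 0.34 (limma adjusted p = 1). As a share of fgfr1a plus fgfr1b within a library, fgfr1b made up 24.7% and 47.9% in progesterone, 53.5% and 62.7% in DMSO with the morpholino and 41.7% and 38.2% in uninjected libraries. The morpholino DMSO pair was thus above the others in this share, and the progesterone pair spanned the uninjected one. A further copy, fgfr1bl, was at 5.68 and 0 FPKM in progesterone, 0 and 1.96 FPKM in DMSO with the morpholino and 1.27 and 1.24 FPKM in uninjected libraries; related copies can share reads, so the split between them is uncertain.

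Within a library the mix of receptors is free of any factor that scales the whole library. Fgfr3 made up 4.92% and 8.18% of summed receptor FPKM in progesterone, 27.5% and 23.1% in DMSO with the morpholino and 17.7% and 16.1% in uninjected libraries, again without overlap. Fgfr2 made up 23.6% and 36.4% in progesterone, 20.9% and 23.5% in DMSO with the morpholino and 32.1% and 29.3% in uninjected libraries. The summed receptor level was 59.1 and 45.3 FPKM in progesterone, 73.2 and 79.4 FPKM in DMSO with the morpholino and 77.0 and 79.5 FPKM in uninjected libraries. With 2 libraries a group, the smallest two-sided p of an exact permutation test on such a share is 0.333.

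The order of the receptors also differed between groups. In progesterone, fgfr2 (15.2 ± 1.79 FPKM), fgfr4 (14.2 ± 5.26) and fgfr1a (10.8 ± 4.53) were not apart beyond their spread. Fgfr1b (5.81 ± 1.68) was below fgfr2 and fgfr4 but not apart from fgfr1a beyond the spread, and fgfr3 (3.31 ± 0.56) was below all of these. These spreads are between libraries and do not measure the order within a library. Within each progesterone library fgfr1b was below fgfr1a, at 4.62 against 14.0 FPKM and at 6.997 against 7.62 FPKM. With the morpholino in DMSO, fgfr3 (19.2 ± 1.30), fgfr4 (18.2 ± 3.08) and fgfr2 (17.0 ± 2.38) led without differing beyond their spread, ahead of fgfr1b (12.15 ± 0.67) and fgfr1a (8.83 ± 1.85). In uninjected libraries fgfr2 led at 24.0 ± 1.02 FPKM, fgfr4 (15.0 ± 1.67), fgfr1a (14.9 ± 1.67) and fgfr3 (13.2 ± 0.63) were close to each other, and fgfr1b followed at 9.87 ± 0.07 (SD, n = 2 each). The sixth receptor gene, fgfr1bl, is left out of this order because each injected group had 1 library at 0. The genes for the receptors without a kinase domain, fgfrl1a and fgfrl1b, reached at most 0.949 and 0.509 FPKM.

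**Figure D3:**
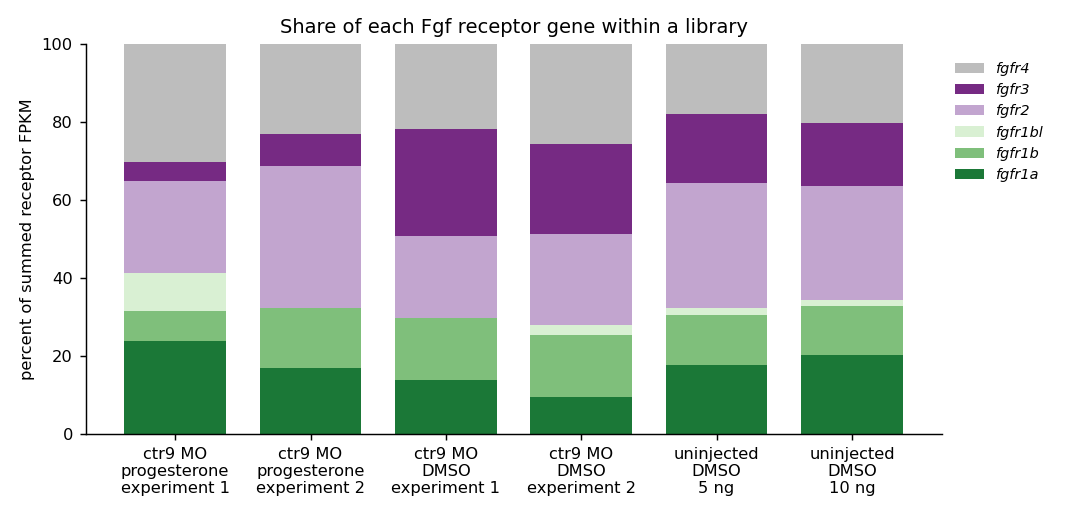
Share of each Fgf receptor gene in the summed receptor FPKM of a library, as stacked bars to 100%. The fgfr3 share is 4.92% and 8.18% in the progesterone libraries and 16.1% to 27.5% in the other 4.

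The summed level of neural tube and neuron markers had the same order of groups as fgfr3, which is also known as a gene of neural progenitors and glia. Over 8 such markers, of which 6 were tested, summed FPKM was 12.3 and 7.78 in progesterone, 68.7 and 56.2 in DMSO with the morpholino and 29.8 and 44.9 in uninjected libraries. Elavl3 made up the largest part of the sum, and not every marker had this order: sox2 stood at 1.59 and 0.588 FPKM in progesterone, 2.96 and 2.01 FPKM in DMSO with the morpholino and 4.73 and 3.96 FPKM in uninjected libraries, and neurog1 overlapped between the DMSO groups. The untested markers pax6a and zic2a overlapped among all groups. In progesterone, pax6a stood at 1.09 and 0 FPKM and zic2a at 1.22 and 0.0250 FPKM. In DMSO with the morpholino they stood at 0.859 and 0.984 FPKM and at 0.857 and 0.0886 FPKM. All 6 tested markers had both progesterone libraries below both morpholino DMSO libraries, beside 44.5% of all genes, and all 6 again with median-ratio scaling, beside 24.3%. The proneural gene neurog1 was listed at 0 in both progesterone libraries, and neurod4 in 1 of them. Over 8 otic placode markers the sums were 48.6 and 29.8 FPKM in progesterone, 83.4 and 54.7 FPKM in DMSO with the morpholino and 92.1 and 77.9 FPKM in uninjected libraries, with dlx3b at 0 in both progesterone libraries. The otic marker oc90 went the other way between injected groups, at 16.9 and 12.7 FPKM in progesterone, 7.12 and 5.02 FPKM in DMSO with the morpholino and 24.4 and 21.6 FPKM in uninjected libraries. Over 6 epidermis markers the sums were 17.6 and 22.3 FPKM in progesterone, 34.6 and 117 FPKM in DMSO with the morpholino and 30.9 and 32.8 FPKM in uninjected libraries. This is also the order of fgfr3 without overlap, so as deposited that order was not particular to the neural markers. With median-ratio scaling, 2 of the 4 tested epidermis markers, krt5 and epcam, were below for progesterone over DMSO, beside 24.3% of all genes. For progesterone with morpholino over uninjected, 0 of the 4 were then below and 1, epcam, above, beside 27% and 21.4%. Epcam stood at 0.856 and 0.589 FPKM in progesterone and at 2.60 and 12.9 FPKM in DMSO with the morpholino. In uninjected libraries it stood at 0.847 and 0.509 FPKM. Its mean of 3.04 FPKM passed the level filter only through the morpholino DMSO group. Its place in these counts therefore gives no support. Over 9 neural crest markers the sums were 822 and 287 FPKM in progesterone, 484 and 448 FPKM in DMSO with the morpholino and 516 and 570.0 FPKM in uninjected libraries. The otic and crest sums are as deposited only. With median-ratio scaling, 3 of 8 tested crest markers were above and 0 below for progesterone over DMSO, beside 20.1% and 24.3% of all genes. Of 7 tested otic markers, 2 were above and 3 below. For progesterone with morpholino over uninjected these counts were 3 and 0 for crest and 0 and 4 for otic markers, beside 21.4% and 27%. The part of these tissues in the fgfr3 difference was not tested, and in bulk samples fewer cells of a type and less RNA per cell cannot be told apart.

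**Figure D4:**
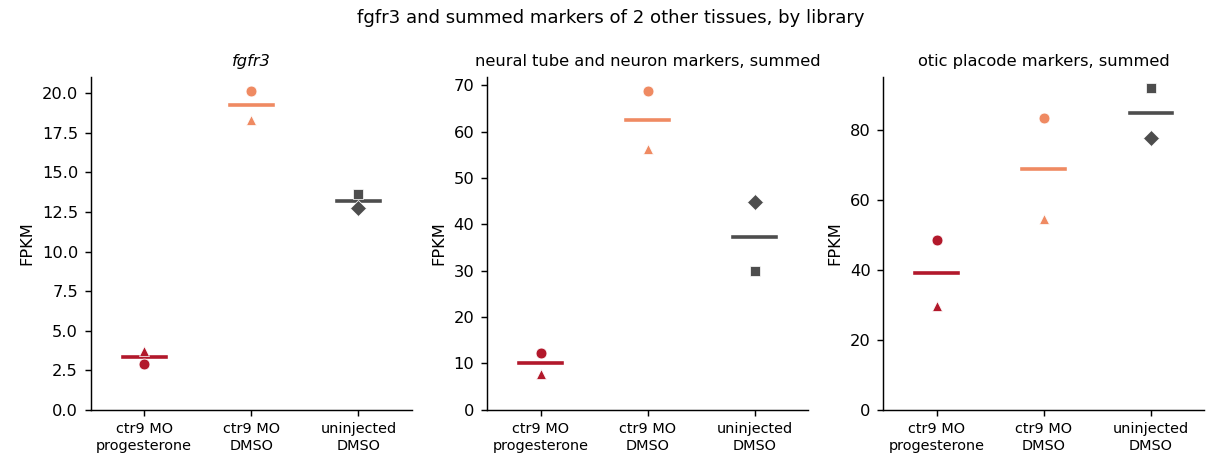
FPKM of fgfr3 (left), summed FPKM of 8 neural tube and neuron markers (middle) and of 8 otic placode markers (right) in each library, with group means as bars. Both fgfr3 and the neural sum are lowest in progesterone (neural sum 12.3 and 7.78) and highest in DMSO with the morpholino (68.7 and 56.2). As deposited, the sum of epidermis markers, not drawn, had this order too.

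The feedback inhibitor genes dusp6 and spry4 had the highest FPKM of the Fgf pathway genes. In 5 of the 8 tested inhibitors both morpholino DMSO libraries lay below both uninjected ones, beside 26.1% of all genes, and in 4 of the 8 with median-ratio scaling, beside 22.1%; none passed the test. Dusp6, which removes phosphate from Erk, stood at 85.4 and 105 FPKM in progesterone, 88.2 and 138 FPKM in DMSO with the morpholino and 168 and 193 FPKM in uninjected libraries. Both injected groups lay below the uninjected pair and overlapped each other, but with median-ratio scaling progesterone, at 94.7 and 185, spanned the uninjected values of 143 and 150.2. The log2 fold change was -0.70 ± 0.32 for morpholino over uninjected in DMSO (SE, n = 2 against 2, limma adjusted p = 1). For progesterone with morpholino over uninjected it was -0.92 ± 0.32 (limma adjusted p = 0.16), a relative change of -0.25, and -0.15 ± 0.41 with median-ratio scaling (limma adjusted p = 0.88).

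Of the Sprouty genes, whose products restrain Ras and Erk below the receptor, spry4 was the most abundant. Spry4 stood at 68.2 and 44.7 FPKM in progesterone, 65.7 and 73.6 FPKM in DMSO with the morpholino and 90.8 and 109 FPKM in uninjected libraries. Both injected groups lay below the uninjected pair as deposited, and progesterone overlapped it with median-ratio scaling. The log2 fold change was -0.51 ± 0.31 for morpholino over uninjected (SE, limma adjusted p = 1) and -0.84 ± 0.31 for progesterone with morpholino over uninjected (limma adjusted p = 0.18). The second value was -0.07 ± 0.21 with median-ratio scaling (limma adjusted p = 0.89), close to the median of all genes on that scale, -0.10.

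Spry2 stood at 22.5 and 14.5 FPKM in progesterone, 31.3 and 27.0 FPKM in DMSO with the morpholino and 38.1 and 37.8 FPKM in uninjected libraries. The 3 groups did not overlap, with progesterone lowest and uninjected libraries highest, but with median-ratio scaling progesterone and DMSO in morpholino embryos overlapped, at 24.9 and 25.6 against 25.8 and 25.2. Spry2 was at -0.37 ± 0.33 for morpholino over uninjected (SE, limma adjusted p = 1) and at -1.03 ± 0.33 for progesterone with morpholino over uninjected (limma adjusted p = 0.15), and the second of these was -0.28 ± 0.20 with median-ratio scaling (limma adjusted p = 0.52). Spry1 stood at 8.88 and 9.08 FPKM in progesterone, 11.7 and 21.8 FPKM in DMSO with the morpholino and 19.4 and 14.9 FPKM in uninjected libraries. Its DMSO groups overlapped, and progesterone lay below both as deposited but overlapped both with median-ratio scaling.

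Spred proteins block activation of Raf. Spred2a stood at 4.01 and 1.60 FPKM in progesterone, 6.97 and 8.80 FPKM in DMSO with the morpholino and 8.41 and 8.38 FPKM in uninjected libraries. Progesterone lay below both other groups, which overlapped. Its log2 fold change was -1.29 ± 0.43 for progesterone over DMSO in morpholino embryos (SE, limma adjusted p = 0.18; relative change -0.71) and -1.38 ± 0.43 over uninjected (limma adjusted p = 0.15; relative change -0.71). With median-ratio scaling these were -0.79 ± 0.35 and -0.78 ± 0.35 (limma adjusted p = 0.32 and 0.34). The current RefSeq annotation places spred2a over meis1a, and whether counting used strand is not given, so reads of these genes may not be separated.

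Its duplicate spred2b stood at 7.85 and 3.88 FPKM in progesterone, 6.05 and 8.2 FPKM in DMSO with the morpholino and 9.55 and 12.5 FPKM in uninjected libraries. Both injected groups lay below the uninjected pair as deposited, progesterone not so with median-ratio scaling. The log2 fold change was -0.57 ± 0.42 for morpholino over uninjected (SE, limma adjusted p = 1). Spred1 stood at 6.74 and 7.09 FPKM in progesterone, 7.42 and 8.89 FPKM in DMSO with the morpholino and 8.94 and 9.06 FPKM in uninjected libraries. Spred3 was listed at 0 in both progesterone libraries and reached at most 0.540 FPKM elsewhere. Il17rd stood at 1.87 and 2.90 FPKM in progesterone, 7.68 and 2.37 FPKM in DMSO with the morpholino and 5.91 and 4.37 FPKM in uninjected libraries, with overlap between progesterone and DMSO in morpholino embryos.

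Taken as a set, the 8 tested feedback inhibitors all lay below the median of all genes for morpholino over uninjected as deposited, with a median relative change of -0.20, although spry1 (-0.012) and spred2a (-0.015) were close to 0. With median-ratio scaling spry1, at a log2 fold change of 0.015, lay just above the median of all genes, 0.010. For progesterone over DMSO in morpholino embryos, 4 lay above and 4 below the median of all genes. Both progesterone libraries were below both DMSO ones in 4 of the 8, beside 44.5% of all genes, and with median-ratio scaling 1 was below and 1 above, beside 24.3% and 20.1%. For progesterone with morpholino over uninjected, all 8 had both libraries below, beside 53% of all genes, but 2 of the 8 with median-ratio scaling, beside 27%. The sum of dusp6, spry1, spry2 and spry4 was 185 and 173 FPKM in progesterone, 197 and 260.3 FPKM in DMSO with the morpholino and 316 and 355 FPKM in uninjected libraries, in that order without overlap. With median-ratio scaling the place of progesterone in this order was lost. The sum was then 205 and 305.0 in progesterone, which overlapped both other groups. The morpholino DMSO pair, at 162 and 243, stayed below the uninjected pair, at 269.7 and 277.

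**Figure D5:**
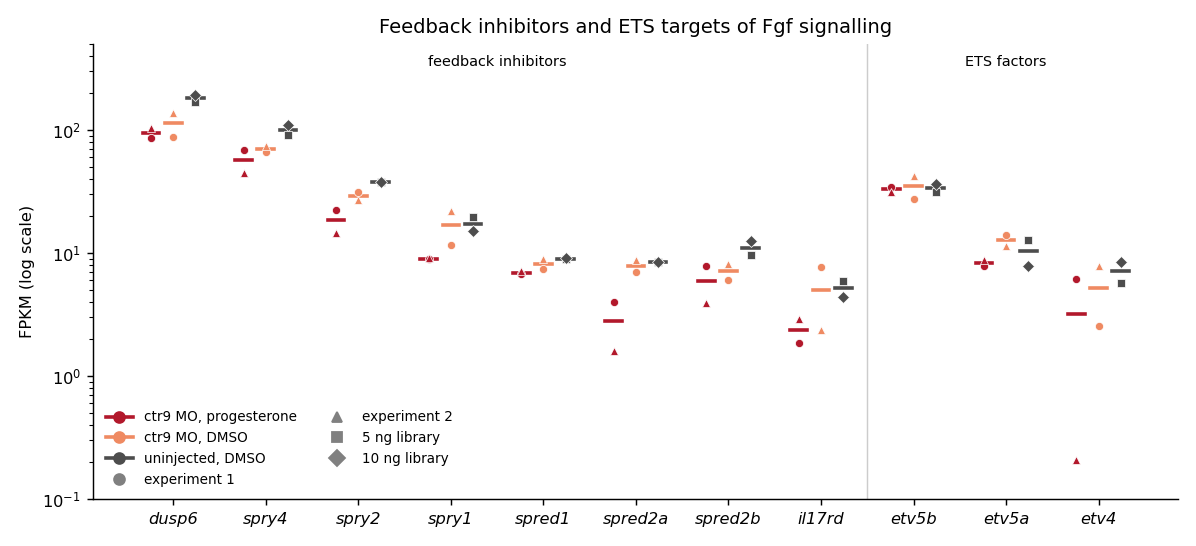
FPKM on a log axis of the 8 tested feedback inhibitors (left of the line) and the 3 ETS genes (right) in each library, with group means as bars. For dusp6 the uninjected libraries, at 168 and 193 FPKM, lie above all 4 morpholino libraries, which range from 85.4 to 138.

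The ETS genes encode transcription factors that Erk signalling induces, and none passed the test. Etv5b stood at 34.7 and 31.2 FPKM in progesterone, 27.6 and 42.1 FPKM in DMSO with the morpholino and 31.4 and 36.4 FPKM in uninjected libraries, with overlap throughout as deposited. With median-ratio scaling, progesterone in etv5b, at 38.4 and 55.0, lay above the uninjected pair, at 26.8 and 28.4. Etv5a stood at 7.84 and 8.76 FPKM in progesterone, 14.0 and 11.3 FPKM in DMSO with the morpholino and 12.8 and 7.89 FPKM in uninjected libraries. Progesterone was below the morpholino DMSO pair in etv5a as deposited, but not with median-ratio scaling, and overlapped the uninjected pair. Etv4 stood at 6.11 and 0.208 FPKM in progesterone, 2.56 and 7.83 FPKM in DMSO with the morpholino and 5.72 and 8.50 FPKM in uninjected libraries. All groups overlapped in etv4, and no unadjusted p was under 0.05 for any of the 3 ETS genes.

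Both libraries of a group lay above or below both of the other in 2 and 7 of the 19 genes for morpholino over uninjected, beside 16.5% and 26.1% of all genes. These counts were 0 and 7 for progesterone over DMSO, beside 6.86% and 44.5%, and 0 and 11 for progesterone with morpholino over uninjected, beside 5.94% and 53%. With median-ratio scaling they were 3 and 6, 2 and 2, and 3 and 3, beside 22.8% and 22.1%, 20.1% and 24.3%, and 21.4% and 27%. The 19 tested genes together had a median log2 fold change of -0.13 for morpholino over uninjected, beside -0.07 for all genes, with 6 above and 13 below the median of all genes. For progesterone over DMSO in morpholino embryos the median was -0.55, beside -0.58, with 10 above and 9 below. For progesterone with morpholino over uninjected it was -0.85, beside -0.67, with 7 above and 12 below. With median-ratio scaling the 3 medians were -0.04, 0.07 and -0.13, beside 0.01, -0.08 and -0.10 for all genes.

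Among other genes that carry or tune the Fgf signal, none passed the test. Lists of the Ras and Erk cascade (19 of 22 genes in the table tested), receptor adaptors (15 of 18), other Erk-induced or Erk-restraining genes (23 of 25) and heparan sulfate genes (21 of 27) had 0 genes called by limma in either direction in any comparison. At an unadjusted p under 0.05, morpholino over uninjected had 1 higher gene in the cascade and 1 in the heparan sulfate list and none lower, beside 1.45% and 2.67% of all genes. Progesterone over DMSO had none higher and 2, 1, 1 and 6 lower in the order of the lists above, beside 1.88% higher and 19.8% lower over all genes. Progesterone with morpholino over uninjected had 1 higher in the cascade and 5, 1, 4 and 7 lower in the same order, beside 1.77% and 23% of all genes.

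Among heparan sulfate genes, the glypican gene gpc3 was listed at 0 in both progesterone libraries, at 7.44 and 6.51 FPKM in DMSO with the morpholino and at 0 in both uninjected libraries (limma adjusted p = 0.36 for morpholino over uninjected and 0.14 for progesterone over DMSO). It was thus found in the morpholino DMSO libraries alone, and with 0 on the other side no fold is given. Its mean of 2.33 FPKM passed the level filter only through the group where it is high, so its p-values give no support. It is the 1 higher heparan sulfate gene counted above, and is among the 6 lower ones for progesterone over DMSO. The sulfotransferase gene hs2st1a stood at 7.39 and 2.27 FPKM in progesterone, 18.7 and 14.7 FPKM in DMSO with the morpholino and 18.3 and 17.3 FPKM in uninjected libraries. Extl3, for a heparan sulfate glycosyltransferase, stood at 4.57 and 2.81 FPKM in progesterone, 11.2 and 9.76 FPKM in DMSO with the morpholino and 9.44 and 9.26 FPKM in uninjected libraries. In both, progesterone lay below the other 4 libraries.

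In the cascade, the Raf kinase gene araf stood at 9.04 and 3.13 FPKM in progesterone, 12.4 and 11.9 FPKM in DMSO with the morpholino and 15.8 and 17.2 FPKM in uninjected libraries. Rasa1a, for a GTPase-activating protein that turns Ras off, stood at 15.0 and 7.38 FPKM in progesterone, 32.4 and 18.0 FPKM in DMSO with the morpholino and 33.0 and 34.0 FPKM in uninjected libraries. Both genes were lowest in progesterone, and were lower in DMSO with the morpholino than in uninjected libraries, for rasa1a as deposited only.

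Of the adaptors, frs2b, which docks on Fgf receptors, stood at 2.62 and 1.06 FPKM in progesterone, 5.29 and 2.88 FPKM in DMSO with the morpholino and 6.71 and 5.89 FPKM in uninjected libraries, in that order without overlap, although progesterone and DMSO in morpholino embryos overlapped with median-ratio scaling. Crk stood at 32.0 and 15.9 FPKM in progesterone, 47.4 and 42.2 FPKM in DMSO with the morpholino and 38.6 and 41.0 FPKM in uninjected libraries. Plcg1, the phospholipase that Fgf receptors activate beside Ras, stood at 24.7 and 15.6 FPKM in progesterone, 55.6 and 28.9 FPKM in DMSO with the morpholino and 31.3 and 34.1 FPKM in uninjected libraries. Crk and plcg1 were lowest in progesterone as deposited. With median-ratio scaling, progesterone overlapped the uninjected pair in crk and lay only slightly above it in plcg1.

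Of the other Erk-induced or Erk-restraining genes, the phosphatase gene dusp4 stood at 22.2 and 28.1 FPKM in progesterone, 25.2 and 45.6 FPKM in DMSO with the morpholino and 54.0 and 61.2 FPKM in uninjected libraries. Junbb, a member of the AP-1 family, stood at 205 and 159 FPKM in progesterone, 189 and 250.3 FPKM in DMSO with the morpholino and 278 and 322 FPKM in uninjected libraries. In both genes the injected groups overlapped and lay below the uninjected pair as deposited, and progesterone overlapped that pair with median-ratio scaling. Ier5l stood at 64.6 and 28.2 FPKM in progesterone, 110.3 and 116 FPKM in DMSO with the morpholino and 119.6 and 127 FPKM in uninjected libraries, and was lowest in progesterone.

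The 6 entries that match by name alone all passed the level filter. Fgfr1op, a centrosome gene now called cep43, stood at 0 and 2.12 FPKM in progesterone, 7.68 and 6.82 FPKM in DMSO with the morpholino and 5.63 and 3.498 FPKM in uninjected libraries. Spryd7a, named for a SPRY domain that Sprouty proteins do not have, stood at 2.97 and 6.20 FPKM in progesterone, 3.71 and 3.85 FPKM in DMSO with the morpholino and 10.2 and 10.6 FPKM in uninjected libraries. None of the 6 was called by limma, and 1, 1 and 2 of them had an unadjusted p under 0.05 in the 3 comparisons in the order given above, all lower, beside 2.67%, 19.8% and 23% of all genes.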

How the data were processed

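RNA depleted of ribosomal RNA was sequenced as paired reads, and the authors deposited 1 table of FPKM for 6 libraries; the unit comes from a stray header row at its foot, which was removed. The submitters' processing notes name TopHat2 2.0.11, Cufflinks 2.2.1 and cutadapt, while Zv9 and hg19 are named with no role. The uninjected columns are named by 5 and 10 ng and carry no experiment number. The 13155 genes averaging at least 1 FPKM over the 6 libraries were fitted with limma 3.58.1 in R 4.3.3 on log2(FPKM + 1), with 3 group means, 3 residual degrees of freedom, a trend in eBayes and Benjamini-Hochberg adjustment over all of them; this scale understates changes of low genes. The fit was tested on simulated data. Fold changes are given for Fgf pathway genes with an unadjusted p under 0.05 or whose libraries do not overlap in the same direction on both scales, a rule set after the values were seen. Genes with a mean of at least 1 FPKM are given in every library; of each list of other pathway genes, the 3 with the smallest p are named, except 1 gene that is not reported here. Members and lists were chosen with earlier results of these data known. Of the 60 identifiers, 47 were found in the name table. Other pseudocounts, filters, scaling, library sets and a block on the experiment number were tried.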

Additional observations from a re-analysis of the deposited data

How the results depend on the processing

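Every one of the 16 printed fold changes kept its direction in all 195 alternatives. This outcome was largely fixed in advance, since in all 16 the libraries compared did not overlap as deposited. Leaving out a library, another pseudocount, another filter or a block could therefore not reverse them. Only median-ratio scaling could have reversed some, so the kept direction is no measure of how firm they are. Of the 19 tested Fgf pathway genes, leaving out 1 library at a time called 0 to 5 for progesterone over DMSO and 0 to 8 for progesterone with morpholino over uninjected. Genes with an unadjusted p under 0.05 were 0 as reported for morpholino over uninjected, 4 with no filter on low values (which tests more genes), 4 with the 2 groups alone, and 0 to 4 when 1 library was left out. For progesterone over DMSO they were 3 as reported, 6 with no filter, 1 with the 2 groups alone and 1 to 9 when 1 library was left out. For progesterone with morpholino over uninjected they were 5 as reported, 9 with no filter, 1 with median-ratio scaling, 2 with that scaling and without the progesterone library of experiment 2 (an alternative chosen after seeing the data), and 1 to 9 when 1 library was left out. With the experiment number as a replicate block on the 4 morpholino libraries, 0 genes were called and 1 had an unadjusted p under 0.05; same-numbered libraries deviated together only weakly (r = 0.0762 across genes), so the number is not taken to pair them. The causes of these moves were not tested. Depth is unknown, and ligands under 1 FPKM were too low for a difference to be detectable.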

Other observations

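Within the morpholino DMSO group, the library of experiment 2 was above that of experiment 1 in 8 of the 11 tested feedback and ETS genes, among them dusp6 (138 and 88.2 FPKM), spry1 (21.8 and 11.7 FPKM), etv5b (42.1 and 27.6 FPKM) and etv4 (7.83 and 2.56 FPKM). The Erk phosphatase gene dusp5, named here after its values were seen, stood at 34.3 FPKM in experiment 2 and 8.55 FPKM in experiment 1 in DMSO with the morpholino, and at 44.0 and 12.2 FPKM in the same experiments with progesterone, while the uninjected libraries stood at 52.5 and 48.8 FPKM. Fosl1a, of the AP-1 family and likewise named after its values were seen, stood at 178 and 78.5 FPKM in these experiments in DMSO with the morpholino, and at 157 and 124 FPKM with progesterone. Other genes of the same list went the other way in both injected groups as deposited, among them egr1, fosb, dusp2, egr3 and IER2. For fosb with progesterone this did not hold with median-ratio scaling. Egr1 stood at 30.8 FPKM in experiment 2 and 57.4 FPKM in experiment 1 in DMSO with the morpholino, and at 18.4 and 73.4 FPKM with progesterone. Dusp5 and fosl1a therefore do not stand for the list. With progesterone, 5 of the 11 feedback and ETS genes were higher in experiment 2 as deposited, where that library had the low total. With median-ratio scaling, etv5b (55.0 and 38.4), spry2 (25.6 and 24.9) and spry4 (78.9 and 75.7) were also higher in experiment 2 than in experiment 1. The contrast between the counts with progesterone and in DMSO thus depends on the scale, and shares over all genes were not taken.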
